A study of Rattus norvegicus with 15 samples.

Results

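The homeobox and T-box transcription factors that pattern the limb and the trunk were followed in cultured rat bone marrow mesenchymal stem cells. The set holds every row of the deposited gene table whose name starts with Hoxa, Hoxb, Hoxc, Hoxd, Dlx, Msx, Prrx, Pitx, Meis, Pbx, Tbx or the stem shared by Six4 and Six5, followed by a digit, with Pbxip1 and Tbxa2r left out. These are 44 rows with 39 gene names, out of 12169 genes in the table. RefSeq lists 79 rat protein-coding symbols of this pattern and 38 of them have a row, while Tbx4 and the rest were not analysed here. The rats were Sprague Dawley, the marrow was femoral, the cells were used at passages 3 to 5, and RNA was sequenced from 15 libraries, 3 in each of 5 groups. The group labelled shRac1+OGD received a lentivirus with a hairpin against the small GTPase Rac1, then oxygen and glucose deprivation (OGD) and reoxygenation. The group shLuci+OGD received the control lentivirus, whose hairpin targets luciferase, and the same deprivation. The groups labelled shRac1 and shLuci received those viruses alone, and the group BMSC received neither virus nor OGD. OGD was 12 h at 1% O2 in medium without glucose, followed by 24 h of reoxygenation. The labels name neither a promoter for the hairpins nor single clones, and nothing in them says that the replicates of a group came from different cultures or animals. The p-values below therefore speak of the spread between these samples, which may be technical.

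Hox genes sit in clusters on separate chromosomes, and their order along a cluster follows the order of the body regions in which the embryo uses them. Genes with a low paralogue number act towards the head and the shoulder or hip, and those with a high number act towards the tail and the digits. Cells of adult connective tissue keep part of this code, so that mesenchymal cells from different bones differ in the Hox genes they transcribe. Pbx and Meis proteins bind DNA together with Hox proteins, Msx and Dlx proteins act downstream of bone morphogenetic proteins (BMPs) in limb buds and bone, Six4 and its relatives act with Eya partners, and T-box proteins set limb type and limb outline.

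Levels are given in FPKM, fragments scaled by transcript length and by the mapped fragments of the library, which are corrected for length and may be compared between genes. The files hold no counts, so how deeply each library was sequenced is not known. BMSC replicate 2 stands apart, with a summed FPKM of 628685 against at most 516495 elsewhere, 144 genes listed at 0, and the lowest mean correlation across genes with its own group, 0.915. Of the marker lists, 7 of 14 mesenchymal names had a row, and these names count Thy1 also as Cd90 and Itgb1 also as Cd29. Col1a1 stood at 3070 to 4250 FPKM, Thy1 at 476 to 783 FPKM, Itgb1 at 305 to 554 FPKM and Cd44 at 30.8 to 64.1 FPKM. Pdgfrb stood at 5.86 to 32.7 FPKM, Pdgfra at 5.09 to 30.8 FPKM and Ly6e at 0.105 to 3.94 FPKM. Of 12 haematopoietic markers 3 had a row, Cd14 at 6.28 to 12.9 FPKM and Cd68 and Fcer1g below 2 FPKM, and of 7 endothelial markers 2 had a row, Tek and Flt1, both below 1.5 FPKM. The 5 listed osteoblast markers, mostly Spp1, summed to 834 to 853 FPKM in libraries labelled shRac1+OGD, 1320 to 1500 FPKM in shLuci+OGD, 462 to 565 FPKM in libraries labelled shRac1, 596 to 626 FPKM in shLuci and 272 to 331 FPKM in BMSC. The 5 smooth muscle markers, led by Acta2 and Tagln, summed to 5220 to 5520 FPKM in libraries labelled shRac1+OGD, 2920 to 3420 FPKM in shLuci+OGD, 5940 to 6200 FPKM in libraries labelled shRac1, 6010 to 7000 FPKM in shLuci and 7600 to 10600 FPKM in BMSC. In OGD libraries against all others limma called 4 of the 5 lower and 1 higher, where 8.01% and 18.7% of all genes were. By titles it called 3 lower and 1 higher for shLuci+OGD against shLuci, where 9.18% and 13.1% of all genes were. For the label shRac1+OGD against shRac1 it called 0 lower and 1 higher, where 4.19% and 7.76% of all genes were. With the groups without OGD exchanged, limma called 4 lower and 1 higher for shLuci+OGD against the label shRac1, where 5.01% and 10.7% of all genes were. For the label shRac1+OGD against BMSC it called 3 lower and 1 higher, where 3.53% and 9.94% of all genes were. Of 4 chondrocyte markers 2 had a row, Acan and Sox9, whose sum was 189 to 208 FPKM in libraries labelled shRac1+OGD, 190 to 219 FPKM in shLuci+OGD, 136 to 158 FPKM in libraries labelled shRac1, 221 to 256 FPKM in shLuci and 104 to 159 FPKM in BMSC. Sox9 alone averaged 24.0 ± 0.638, 17.1 ± 1.15, 12.4 ± 0.41, 39.4 ± 2.21 and 44.3 ± 16.2 FPKM in the same groups and order (SD, n = 3 each). Its mean was thus highest in BMSC, which held the library with the lowest sum. Of 6 skeletal muscle markers 2 had a row, Acta1 and Des, whose sum was 4.24 to 4.95 FPKM in libraries labelled shRac1+OGD, 4.88 to 5.25 FPKM in shLuci+OGD, 7.11 to 7.89 FPKM in libraries labelled shRac1, 3.15 to 4.13 FPKM in shLuci and 7.83 to 12.3 FPKM in BMSC. Of 5 adipocyte markers 3 had a row, with sums of 1.49 to 3.17 FPKM over all libraries. The part of these marker differences in the results below was not tested. In bulk RNA, fewer cells of a kind and less transcript per cell cannot be told apart.

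Rac1, the target of the hairpin, did not check the labels. It stood at 155 ± 2.57 FPKM in libraries labelled shRac1+OGD, 156 ± 14.6 FPKM in shLuci+OGD, 147 ± 4.96 FPKM in libraries labelled shRac1, 156 ± 9.90 FPKM in shLuci and 151 ± 3.27 FPKM in BMSC (mean ± SD, n = 3 each). The log2 change of the libraries labelled shRac1 against shLuci was -0.09 (SE 0.08, adjusted p = 0.577 by limma), and after OGD it was -0.00 (adjusted p = 1 by limma). Of the 10 pairs that 5 groups allow, 6 have a list of changed genes from the authors. Their OGD pairs set shLuci+OGD against the libraries labelled shRac1 and shRac1+OGD against BMSC, and none sets an OGD group against the group of the same hairpin. Changes of the members with OGD in 1 hairpin group are therefore given by the sample titles with the values over the pairs of the authors' lists beside them. Comparisons among the groups without OGD rest on the same titles, and which groups they compare was not checked by Rac1. Results that compare all 6 OGD libraries with all 9 others, or ask for any difference among the 5 groups, do not depend on which group without OGD carries which title.

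Most of these genes were transcribed at a moderate level. The mean over all 15 libraries was above 50 FPKM for 3 rows, between 10 and 50 FPKM for 15, between 1 and 10 FPKM for 18 and at most 1 FPKM for 8. The 3 highest were Prrx1 and Prrx2, the paired-type factors of limb bud mesenchyme, and Hoxc10, a gene of hindlimb and lower trunk. Tests were run on the 37 rows (33 names) with at least 1 FPKM in at least 3 libraries, of which 30 reached 1 FPKM in every library. The 7 rows under this filter were Hoxa6, Hoxa7, Hoxb9, both rows of Hoxa11-as, Dlx2 and Tbx5.

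**Figure D1:**
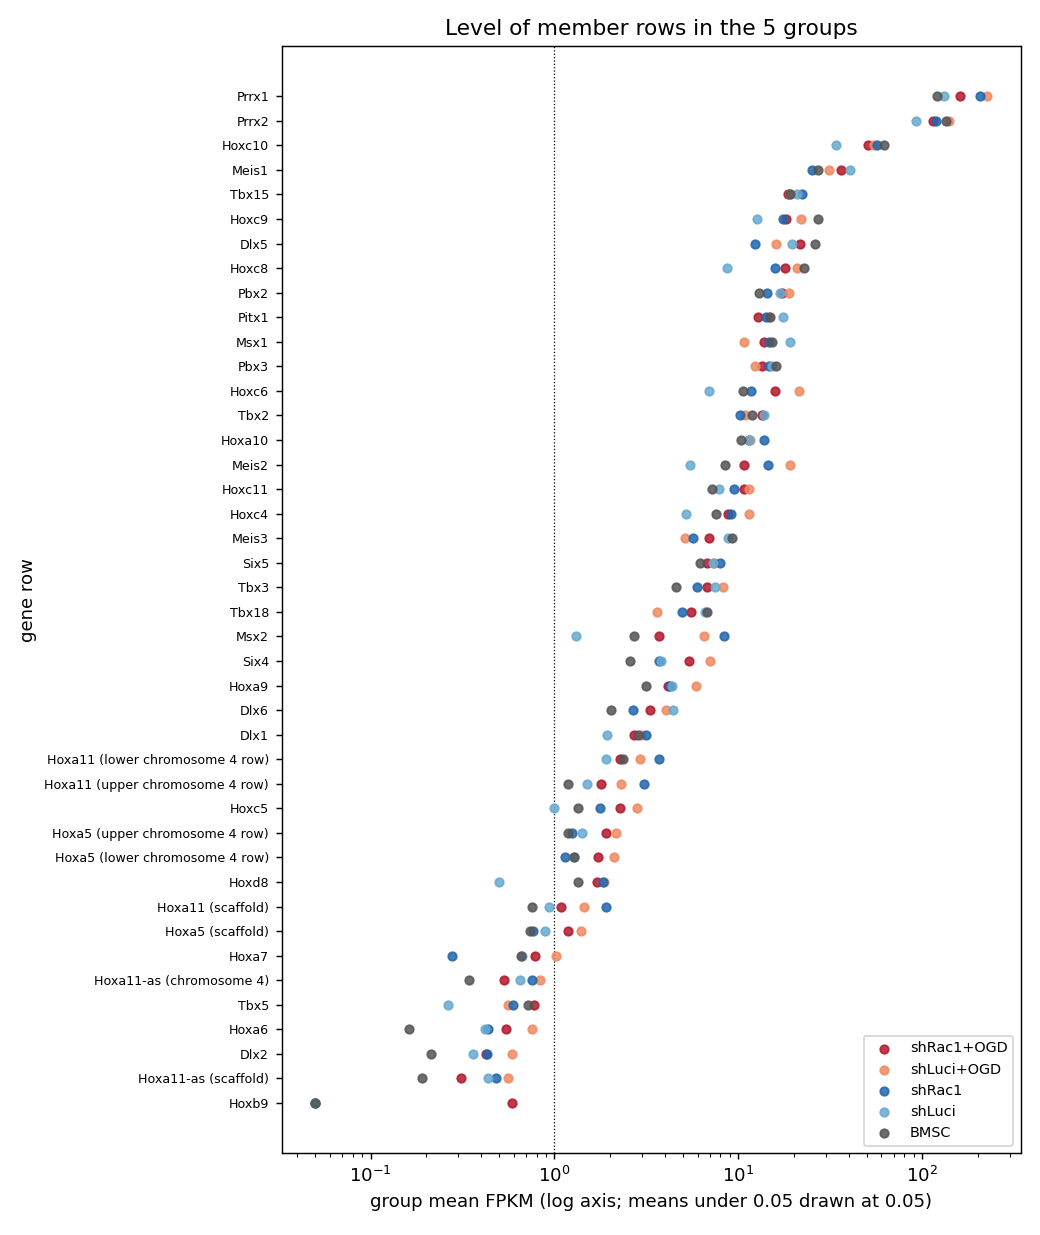
Mean FPKM of 42 of the 44 rows (x axis, log scale) in the 5 groups (coloured points, 3 libraries each), with rows ordered by their mean over all libraries and a dotted line at 1 FPKM. Prrx1, Prrx2 and Hoxc10 lie furthest to the right, and the shLuci point of Msx2 lies far to the left of its other points.

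Among the genes that set limb type, the hindlimb factor Pitx1 was transcribed and the forelimb factor Tbx5 stayed below 1 FPKM in every library. Tbx4, another gene of limb type, had no row, so its level is not known here. Pitx1 read 12.5, 12.4 and 13.4 FPKM in libraries labelled shRac1+OGD and 14.7, 16.1 and 13.2 FPKM in shLuci+OGD. Without OGD Pitx1 read 13.3, 14.7 and 14.2 FPKM in libraries labelled shRac1, 19.5, 16.9 and 16 FPKM in shLuci and 12.9, 18.6 and 13.2 FPKM in BMSC. The shLuci libraries stood above those labelled shRac1 and shRac1+OGD, and the other groups overlapped in part. The moderated F-test of limma over the 5 groups did not call Pitx1 (adjusted p = 0.147), while it did without BMSC replicate 2 (adjusted p = 0.0036). Tbx5 averaged 0.771 ± 0.0454 FPKM in libraries labelled shRac1+OGD, 0.556 ± 0.0342 FPKM in shLuci+OGD, 0.594 ± 0.071 FPKM in libraries labelled shRac1, 0.264 ± 0.0439 FPKM in shLuci and 0.717 ± 0.0329 FPKM in BMSC (SD, n = 3 each), below the filter in every group. Hoxb9 was listed at 0 in 14 libraries and at 1.77 FPKM in replicate 3 of the libraries labelled shRac1+OGD, and it was the sole Hoxb row.

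The Hox genes of the table came almost wholly from the HoxA and HoxC clusters, with 12 and 7 rows against 1 row each for HoxB and HoxD. Summed over its 7 genes, HoxC stood at 125 ± 3.91 FPKM in libraries labelled shRac1+OGD, 144 ± 9.17 FPKM in shLuci+OGD, 122 ± 3.96 FPKM in libraries labelled shRac1, 76.3 ± 8 FPKM in shLuci and 138 ± 47.7 FPKM in BMSC (SD, n = 3 each). HoxA rows summed to 24.7 ± 0.242, 28.8 ± 1.74, 28.2 ± 0.767, 23.3 ± 1.16 and 20.6 ± 1.25 FPKM in the same groups and order. Along HoxC the group means climbed from Hoxc5 to Hoxc10 and were lower again at Hoxc11, except that in shLuci+OGD Hoxc6 stood just above Hoxc8. Every HoxC gene except Hoxc11 had its lowest mean in shLuci, and for these 6 genes no shLuci library overlapped a library of another group. The share of all genes with such a gap was not counted, so this describes the 6 genes and sets them against no background.

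Of the 37 rows tested, 28 differed among the 5 groups by the moderated F-test of limma (adjusted p under 0.05), where 33.2% of all 11515 genes tested did. Hoxc6, Meis2 and Msx2 were among the rows with the smallest adjusted p-values.

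All 6 OGD libraries were set against the 9 without OGD, as the mean of the group means on each side. All OGD libraries were infected and BMSC was not, so this contrast holds part of any difference with infection. It also averages over the hairpins, and a called row may change in opposite directions in them, as Msx2 and Meis2 did by titles. Of the 37 rows, 15 were called higher and 4 lower, against 18.7% called higher, 8.01% called lower and 26.7% called in either direction among all genes. The median log2 change was 0.28 over the 37 rows and 0.10 over all genes. With median-of-ratios scaling, which removes such a common shift, 12 were called higher and 5 lower. Without BMSC replicate 2, 26 rows were called, 21 of them higher. Hoxc6 had the smallest adjusted p-value, and among the rows described here the OGD libraries did not overlap the others in Hoxc6, Hoxc5, Six4 and 2 rows of Hoxa5. The share of all genes without overlap was not counted, so these rows have no background to be set against.

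Six4 is a homeobox factor that works with Eya coactivators in muscle and mesenchyme (ENSRNOG00000007250, chromosome 6, 95984868 to 95998529, minus strand). The sources used here do not give the genome build of these coordinates. Six4 read 5.9, 5.84 and 4.43 FPKM in libraries labelled shRac1+OGD and 6.99, 6.24 and 7.9 FPKM in shLuci+OGD. Without OGD Six4 read 3.85, 3.81 and 3.45 FPKM in libraries labelled shRac1, 3.33, 4.24 and 3.87 FPKM in shLuci and 3.59, 1.29 and 2.85 FPKM in BMSC. Every OGD library stood above every library without OGD, by a log2 change of 0.82 (SE 0.15, adjusted p = 0.00164 by limma). The difference between shLuci+OGD and shLuci was called (log2 change of 0.81, SE 0.24, adjusted p = 0.0282 by limma), but the call was lost in 5 of 15 fits that each left out 1 library (adjusted p up to 0.101), namely without any 1 of the 3 shLuci libraries or shLuci+OGD replicate 1 or 3. Over the authors' pairs Six4 was called at a log2 change of 0.84 (adjusted p = 0.0312 by limma) against the label shRac1 and 1.01 (adjusted p = 0.0157 by limma) against BMSC. Six5, a gene next to the myotonic dystrophy repeat, ranged from 4.36 to 8.61 FPKM and was not called in the fit of all 15 libraries, equally weighted, or without BMSC replicate 2, but was with library weights (F-test adjusted p = 0.00742 by limma).

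**Figure D2:**
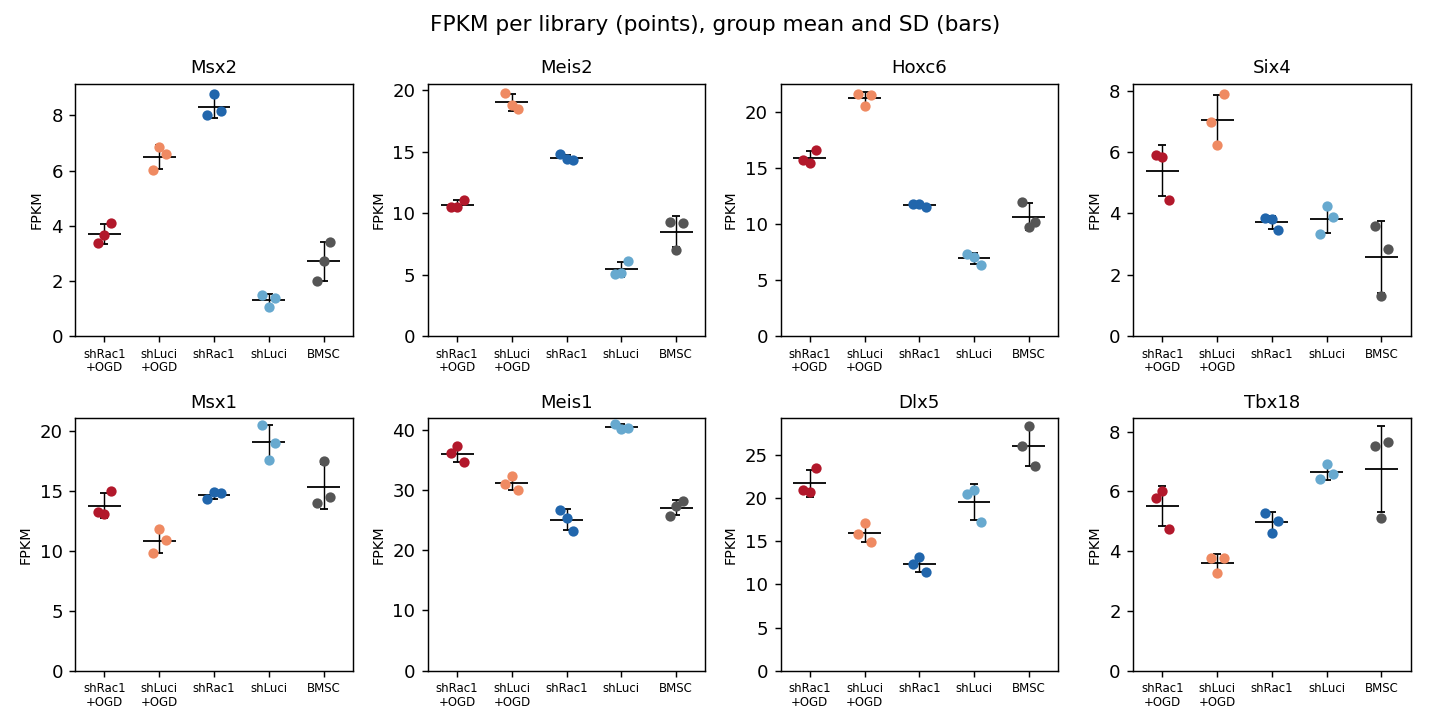
FPKM in each library (points), with group mean and SD (bars, n = 3), for Msx2, Meis2, Hoxc6 and Six4 in the upper panels and Msx1, Meis1, Dlx5 and Tbx18 in the lower panels; groups run along the x axis. Six4 and Hoxc6 are higher in both OGD groups than in the 3 others, Msx2 and Meis2 are lowest in shLuci, and Meis1 is highest there.

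Hoxc6, a gene of the thorax and the limb base, rose with OGD in every comparison made (ENSRNOG00000016442, chromosome 7, 144623555 to 144625516, plus strand). Hoxc6 read 15.7, 15.5 and 16.6 FPKM in libraries labelled shRac1+OGD and 21.6, 20.6 and 21.5 FPKM in shLuci+OGD. Without OGD Hoxc6 read 11.8, 11.8 and 11.5 FPKM in libraries labelled shRac1, 7.36, 7.05 and 6.35 FPKM in shLuci and 12, 9.75 and 10.2 FPKM in BMSC. Each OGD library exceeded each library without OGD, and the 3 libraries labelled shRac1 stood above shLuci without overlap. Across the OGD libraries the log2 change was 0.92 (SE 0.05, adjusted p = 1.31e-07 by limma). By titles the log2 change was 1.55 (SE 0.08, adjusted p = 4.7e-08 by limma) in shLuci cells and the log2 change was 0.43 (SE 0.08, adjusted p = 0.00427 by limma) in the libraries labelled shRac1. Over the authors' pairs the log2 change was 0.84 (SE 0.08, adjusted p = 2.85e-05 by limma) against the libraries labelled shRac1 and the log2 change was 0.56 (SE 0.08, adjusted p = 0.000944 by limma) against BMSC.

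The neighbours of Hoxc6 followed it in part. Hoxc4 read 8.2, 9.1 and 8.91 FPKM in libraries labelled shRac1+OGD and 10.7, 11.9 and 11.5 FPKM in shLuci+OGD. Without OGD Hoxc4 read 9.21, 9.32 and 8.74 FPKM in libraries labelled shRac1, 5.64, 5.46 and 4.51 FPKM in shLuci and 6.63, 8.53 and 7.68 FPKM in BMSC. Hoxc4, which works in the neck and the front of the trunk, was lowest in shLuci in every library and highest in shLuci+OGD, and the log2 change was 1.06 (SE 0.10, adjusted p = 9.28e-06 by limma) between those groups. The authors' pairs gave no call for Hoxc4, with log2 changes of 0.31 (adjusted p = 0.0706 by limma) for shLuci+OGD and 0.19 (adjusted p = 0.232 by limma) for shRac1+OGD. Hoxc5 read 2.18, 2.51 and 2.08 FPKM in libraries labelled shRac1+OGD and 2.27, 3.28 and 2.86 FPKM in shLuci+OGD. Without OGD Hoxc5 read 1.94, 1.73 and 1.61 FPKM in libraries labelled shRac1, 1.15, 1.12 and 0.736 FPKM in shLuci and 1.23, 1.57 and 1.21 FPKM in BMSC. Hoxc5, the lowest of the cluster, had its OGD libraries above all others (log2 change of 0.71, SE 0.10, adjusted p = 0.000154 by limma). It was also called in both of the authors' pairs, at log2 changes of 0.54 for shLuci+OGD against the libraries labelled shRac1 (adjusted p = 0.0274 by limma) and 0.59 for shRac1+OGD against BMSC (adjusted p = 0.022 by limma).

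Hoxc8 and Hoxc9, genes of the thorax, differed most within HoxC between BMSC replicate 2 and the other BMSC libraries. Hoxc8 read 18.4, 18.6 and 17.1 FPKM in libraries labelled shRac1+OGD and 20.8, 23.2 and 18.4 FPKM in shLuci+OGD. Without OGD Hoxc8 read 15, 16.8 and 16 FPKM in libraries labelled shRac1, 9.77, 8.08 and 8.29 FPKM in shLuci and 14.7, 37.7 and 15.7 FPKM in BMSC. That replicate held 2.48 times the mean of the other BMSC libraries for Hoxc8 and 3.08 times for Hoxc9, and the spread of both genes is pooled over all groups in every contrast. By titles Hoxc8 rose with OGD in shLuci cells (log2 change of 1.21, SE 0.26, adjusted p = 0.00478 by limma), and over the authors' pairs its log2 changes were 0.37 (adjusted p = 0.439 by limma) for shLuci+OGD and -0.19 (adjusted p = 0.638 by limma) for shRac1+OGD, neither called. Its difference between the libraries labelled shRac1 and shLuci was called at a log2 change of 0.84 (SE 0.26, adjusted p = 0.0459 by limma), though the call was lost without any 1 of the 12 libraries outside BMSC (limma adjusted p up to 0.14) and stood at 6.39e-06 without BMSC replicate 2. Hoxc9 averaged 18.2 ± 1.53 FPKM in libraries labelled shRac1+OGD, 21.9 ± 3.21 FPKM in shLuci+OGD, 17.4 ± 0.203 FPKM in libraries labelled shRac1, 12.6 ± 2.62 FPKM in shLuci and 27.1 ± 19.3 FPKM in BMSC (SD, n = 3 each), and limma called it in no contrast of the full fit (F-test adjusted p = 0.244), while the F-test called it without BMSC replicate 2 (adjusted p = 0.00156).

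Hoxc10 and Hoxc11 mark the hindlimb end of the cluster. Hoxc10 read 51.5, 48.2 and 53 FPKM in libraries labelled shRac1+OGD and 53.9, 59.1 and 51.7 FPKM in shLuci+OGD. Without OGD Hoxc10 read 56.3, 58.8 and 54.3 FPKM in libraries labelled shRac1, 37.4, 33.1 and 31.5 FPKM in shLuci and 52.4, 80.9 and 51.7 FPKM in BMSC. All 3 shLuci libraries of Hoxc10 were below the 12 others, whose groups overlapped in part. The log2 change was 0.68 (SE 0.14, adjusted p = 0.00378 by limma) for shLuci+OGD against shLuci, while shLuci+OGD and the libraries labelled shRac1 overlapped and their difference was -0.04 (adjusted p = 0.926 by limma). Against BMSC the log2 change of Hoxc10 in shRac1+OGD was -0.24 (adjusted p = 0.266 by limma). Hoxc11 read 11.8, 9.6 and 10.7 FPKM in libraries labelled shRac1+OGD and 10.6, 11.4 and 12.5 FPKM in shLuci+OGD. Without OGD Hoxc11 read 9.25, 10.4 and 8.75 FPKM in libraries labelled shRac1, 8.38, 7.18 and 7.97 FPKM in shLuci and 7.93, 5.51 and 8.07 FPKM in BMSC. Hoxc11 was higher in OGD libraries (log2 change of 0.43, SE 0.09, adjusted p = 0.00305 by limma), with the shRac1+OGD label overlapping both shLuci+OGD and the shRac1 label. By titles the log2 change was 0.52 (SE 0.14, adjusted p = 0.0155 by limma) in shLuci cells, a call lost without shLuci replicate 2 or shLuci+OGD replicate 3 (adjusted p up to 0.0702). In the authors' pair shLuci+OGD was not called for Hoxc11, at a log2 change of 0.26 (adjusted p = 0.251 by limma), while shRac1+OGD was against BMSC, at 0.56 (adjusted p = 0.0183 by limma).

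**Figure D3:**
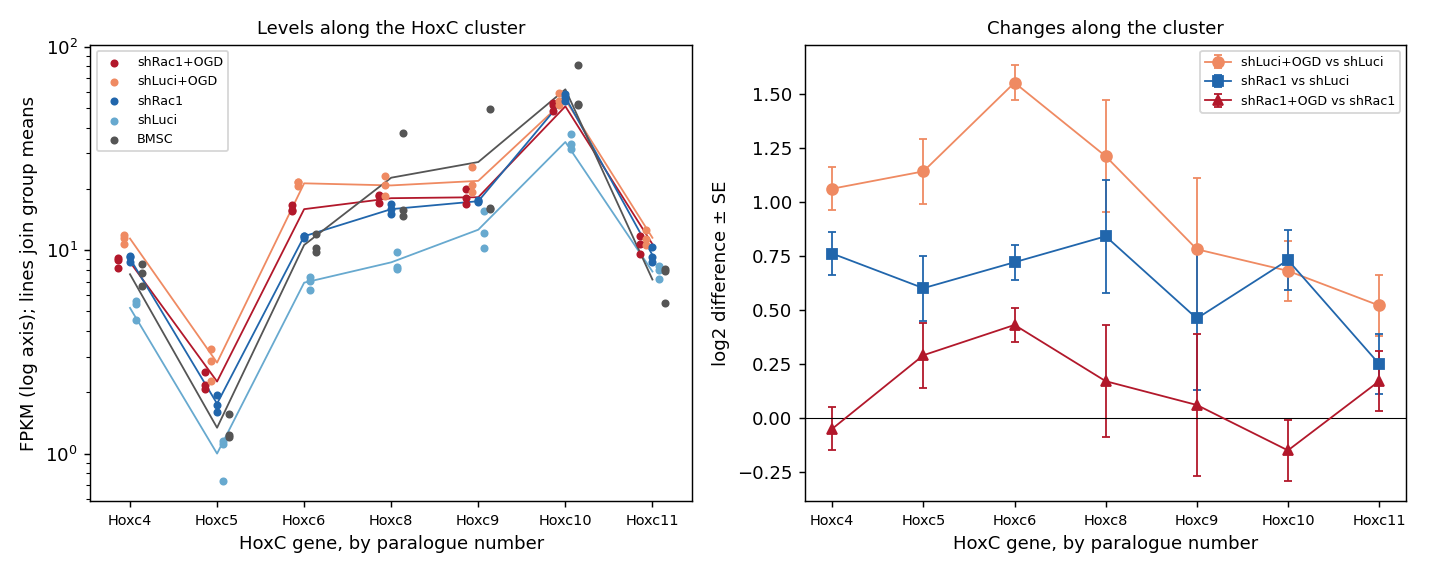
Left, FPKM of the 7 HoxC genes (log y axis) by paralogue number, with points for libraries and lines joining group means; right, log2 difference ± SE of limma for shLuci+OGD against shLuci, the label shRac1 against shLuci, and the label shRac1+OGD against shRac1. The shLuci line runs below the others from Hoxc4 to Hoxc10, and the change of shLuci+OGD against shLuci is largest at Hoxc6, 1.55, and smallest at Hoxc11, 0.52.

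In the HoxA cluster, Hoxa10 was the highest gene and the upper Hoxa11 row had the widest range of group means on the log2(FPKM + 0.5) scale among the rows tested. Hoxa10 acts in the upper limb segment and in bone formation. Hoxa10 read 11.5, 11.4 and 11.8 FPKM in libraries labelled shRac1+OGD and 11.6, 12 and 11.2 FPKM in shLuci+OGD. Without OGD Hoxa10 read 13.8, 14.3 and 13.3 FPKM in libraries labelled shRac1, 11.8, 11.8 and 10.8 FPKM in shLuci and 10.5, 9.71 and 11.1 FPKM in BMSC. The 3 libraries labelled shRac1 held the highest values, above every other library, and the other groups overlapped in part. The difference from BMSC was a log2 change of 0.39 (SE 0.07, adjusted p = 0.00416 by limma). The differences from shLuci (log2 change 0.25, adjusted p = 0.0287 by limma) and from shRac1+OGD (log2 change -0.25 for shRac1+OGD against shRac1, adjusted p = 0.0434 by limma) were lost without any 1 of the 6 libraries they compared, at adjusted p up to 0.118 and 0.166. The call for shRac1+OGD against shRac1 was also lost without some libraries outside the comparison, and it held in 4 of 15 fits that each left out 1 library. In the authors' pair with BMSC the log2 change of Hoxa10 in shRac1+OGD had the other sign, 0.14 (adjusted p = 0.212 by limma), and shLuci+OGD against the label shRac1 gave -0.24 (adjusted p = 0.0375 by limma).

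Hoxa11, a gene of the middle limb segment, has 3 rows, at 82211366 to 82215022 and 82298152 to 82300503 on chromosome 4 and on the unplaced scaffold KL567939.1. Hoxa5 and the antisense RNA Hoxa11-as also have several rows, 8 rows for the 3 names, so reads may have been split between near-identical copies and their levels are uncertain. The lower Hoxa11 row and the upper Hoxa5 row lie within the locus LOC100909604 on the same strand. The lower Hoxa11 row read 1.89, 2.31 and 2.57 FPKM in libraries labelled shRac1+OGD and 2.86, 3.34 and 2.59 FPKM in shLuci+OGD. Without OGD the lower Hoxa11 row read 3.31, 3.79 and 3.98 FPKM in libraries labelled shRac1, 2, 1.74 and 1.95 FPKM in shLuci and 2.12, 2.57 and 2.39 FPKM in BMSC. The libraries labelled shRac1 stood above all BMSC, shLuci and shRac1+OGD libraries and overlapped shLuci+OGD. The lower row was higher in libraries labelled shRac1 than in shLuci (log2 change of 0.80, SE 0.12, adjusted p = 0.000539 by limma) and lower in shRac1+OGD than in shRac1 (log2 change of -0.61, SE 0.12, adjusted p = 0.00525 by limma). Against BMSC, the authors' pair, the lower row's change in shRac1+OGD was a log2 change of -0.06 (adjusted p = 0.759 by limma). In shLuci+OGD it was a log2 change of 0.51 (adjusted p = 0.00881 by limma) by titles and -0.29 (adjusted p = 0.143 by limma) over the authors' pair, with the other sign.

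The upper Hoxa11 row read 1.81, 1.66 and 1.91 FPKM in libraries labelled shRac1+OGD and 2.28, 2.89 and 1.75 FPKM in shLuci+OGD. Without OGD the upper Hoxa11 row read 2.76, 2.99 and 3.47 FPKM in libraries labelled shRac1, 1.44, 1.6 and 1.5 FPKM in shLuci and 1.53, 0.467 and 1.53 FPKM in BMSC. This row was highest in the label shRac1, whose libraries overlapped shLuci+OGD. The scaffold Hoxa11 row read 1.07, 0.968 and 1.2 FPKM in libraries labelled shRac1+OGD and 1.41, 1.78 and 1.13 FPKM in shLuci+OGD. Without OGD the scaffold Hoxa11 row read 1.69, 1.84 and 2.19 FPKM in libraries labelled shRac1, 0.818, 0.993 and 0.991 FPKM in shLuci and 0.997, 0.293 and 0.964 FPKM in BMSC. Both of these rows were low in BMSC replicate 2, at 0.305 and 0.299 times the mean of the other BMSC libraries, and both were highest in the label shRac1. They were called for the libraries labelled shRac1 against shLuci at log2 changes of 0.82 (adjusted p = 0.0351 by limma) and 0.74 (adjusted p = 0.0323 by limma), but without any 1 of those 6 libraries neither was called (adjusted p up to 0.126 and 0.123). The upper row's call was also lost without replicate 1 of the label shRac1+OGD. Hoxa5, which acts in the front of the trunk and in lung and bone, had 3 low rows with means of 1.72, 1.91 and 1.18 FPKM in libraries labelled shRac1+OGD and 2.12, 2.17 and 1.39 FPKM in shLuci+OGD, for the lower, upper and scaffold rows. The same rows averaged 1.14, 1.24 and 0.769 FPKM in libraries labelled shRac1, 1.28, 1.42 and 0.887 FPKM in shLuci and 1.28, 1.18 and 0.737 FPKM in BMSC. All 3 were higher in OGD libraries, by log2 changes of 0.49, 0.51 and 0.46 (limma adjusted p of 0.00667, 0.00162 and 0.00128). Hoxa9 averaged 4.15 ± 0.745 FPKM in libraries labelled shRac1+OGD, 5.87 ± 0.535 FPKM in shLuci+OGD, 4.23 ± 0.708 FPKM in libraries labelled shRac1, 4.34 ± 0.394 FPKM in shLuci and 3.14 ± 0.404 FPKM in BMSC, and it was higher in OGD libraries (log2 change of 0.32, SE 0.09, adjusted p = 0.025 by limma). Its mean in the label shRac1+OGD was nonetheless below those of the label shRac1 and shLuci, and BMSC was lowest.

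Hoxd8 was the one HoxD row. Hoxd8 read 1.9, 1.8 and 1.39 FPKM in libraries labelled shRac1+OGD and 2.51, 1.31 and 1.76 FPKM in shLuci+OGD. Without OGD Hoxd8 read 1.79, 2.04 and 1.67 FPKM in libraries labelled shRac1, 0.69, 0.381 and 0.424 FPKM in shLuci and 1.87, 0.245 and 1.94 FPKM in BMSC. The 3 shLuci libraries were below 0.7 FPKM, and BMSC replicate 2 was lower still, at 0.245 FPKM. It was called for shLuci+OGD against shLuci (log2 change of 1.22, SE 0.37, adjusted p = 0.0302 by limma), a call lost without shLuci replicates 2 or 3 or shLuci+OGD replicates 1 or 3 (adjusted p up to 0.119). Hoxd8 had, over the authors' pairs, log2 changes of -0.01 (adjusted p = 0.992 by limma) in shLuci+OGD and 0.43 (adjusted p = 0.437 by limma) in shRac1+OGD. It was also called for the libraries labelled shRac1 against shLuci (log2 change of 1.24, SE 0.37, adjusted p = 0.0359 by limma), a call lost without any 1 of those 6 libraries, shLuci+OGD replicate 3 or replicate 1 or 2 of the label shRac1+OGD (adjusted p up to 0.121).

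Msx1 and Msx2 are paralogous repressors that respond to BMP signals in limb buds, tooth germs and skull. They changed in opposite directions in the label shRac1 against shLuci and in shLuci+OGD against shLuci, comparisons that share the shLuci group. Over the authors' pair, shLuci+OGD against the label shRac1, both genes were lower and limma called Msx1 alone. Promoter windows were read for the 4 described rows with the smallest F-test p and a single RefSeq window, which were Msx2, Meis1, Hoxc4 and Msx1. Those of Msx1 and Msx2 are shown because of their opposite changes against shLuci, a choice made after the values were seen. The windows run from 250 bases before to 50 bases after the RefSeq start in the build GRCr8, which is a different coordinate system from that of the expression table. Capitals mark GC boxes (GGGCGG) and CCAAT boxes (CCAAT), read on both strands, so that CCGCCC and ATTGG are their reverse complements.
Msx2: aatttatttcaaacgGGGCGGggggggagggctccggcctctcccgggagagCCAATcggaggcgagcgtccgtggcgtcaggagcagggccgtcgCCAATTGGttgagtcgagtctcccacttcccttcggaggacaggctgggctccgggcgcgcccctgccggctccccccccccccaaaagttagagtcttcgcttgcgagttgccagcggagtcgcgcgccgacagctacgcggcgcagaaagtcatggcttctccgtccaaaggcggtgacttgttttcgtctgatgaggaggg
Msx1: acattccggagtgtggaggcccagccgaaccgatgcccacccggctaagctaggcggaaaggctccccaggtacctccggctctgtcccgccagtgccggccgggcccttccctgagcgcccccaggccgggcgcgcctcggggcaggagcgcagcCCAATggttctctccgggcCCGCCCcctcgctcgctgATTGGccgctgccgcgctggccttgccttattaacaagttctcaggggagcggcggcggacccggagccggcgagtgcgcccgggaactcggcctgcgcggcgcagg
The Msx2 window is at chr17:11102034-11102333 and the Msx1 window at chr14:77185552-77185851, both on the plus strand. The Msx2 window held 1 GC box and 3 CCAAT boxes, 2 of which overlap on opposite strands, and the Msx1 window held 1 and 2. Neither held the hypoxia cores ACGTG or GCGTG, the AP-1 motif TGANTCA, the homeodomain core TAATTA, the Meis core TGACAG or the TATA box TATAAA. The windows of Meis1 and Hoxc4, read in the same way, held none of the 8 motifs. Of the 23 windows of 21 member names in the table, 12 held a GC box and 12 a CCAAT box, where 33.1% and 37.5% of all 33469 windows did. A hypoxia core was in 5 (ACGTG) and 8 (GCGTG) of the 23, where 19.3% and 29.7% of all windows held them. TGACAG was in 2, TATAAA in 3, and TGANTCA and TAATTA in 0 of the 23, where 19.0%, 14.2%, 7.33% and 5.36% of all windows held them. Median G and C content was 59.0% over the 23 windows and 51.7% over all windows. A match of letters is a description and names no site that a factor uses.

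Msx2 had the largest range of group means among the rows tested, 6.36 times between the libraries labelled shRac1 and shLuci (ENSRNOG00000018355, chromosome 17, 11683862 to 11689527, plus strand). Msx2 read 3.37, 3.67 and 4.09 FPKM in libraries labelled shRac1+OGD and 6.03, 6.87 and 6.6 FPKM in shLuci+OGD. Without OGD Msx2 read 8, 8.77 and 8.18 FPKM in libraries labelled shRac1, 1.5, 1.06 and 1.37 FPKM in shLuci and 1.99, 2.71 and 3.4 FPKM in BMSC. The groups were ordered shRac1, shLuci+OGD, shRac1+OGD, BMSC and shLuci by mean, and among neighbours in this order only shRac1+OGD and BMSC had overlapping libraries. The libraries labelled shRac1 exceeded shLuci by a log2 change of 2.29 (SE 0.15, adjusted p = 4.39e-07 by limma). By titles the log2 change was 1.96 (SE 0.15, adjusted p = 8.91e-07 by limma) in shLuci cells, and the change had the other sign in the libraries labelled shRac1 (log2 change of -1.07, SE 0.15, adjusted p = 0.000404 by limma). Over the authors' pairs both had the other sign and neither was called, at a log2 change of -0.33 (adjusted p = 0.172 by limma) for shLuci+OGD and 0.42 (adjusted p = 0.0875 by limma) for shRac1+OGD. After OGD the libraries labelled shRac1+OGD were lower than shLuci+OGD (log2 change of -0.73, SE 0.15, adjusted p = 0.00839 by limma).

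Msx1 read 13.2, 13.1 and 15 FPKM in libraries labelled shRac1+OGD and 9.8, 11.8 and 10.9 FPKM in shLuci+OGD. Without OGD Msx1 read 14.3, 14.9 and 14.8 FPKM in libraries labelled shRac1, 20.5, 17.6 and 19 FPKM in shLuci and 14, 17.5 and 14.5 FPKM in BMSC. Msx1 was highest in shLuci, where each library exceeded all 12 others, and lowest in shLuci+OGD (ENSRNOG00000006876, chromosome 14, 77712240 to 77716059, plus strand). OGD libraries were lower on average (log2 change of -0.40, SE 0.07, adjusted p = 0.000721 by limma). The log2 change was -0.79 (SE 0.10, adjusted p = 9.82e-05 by limma) for shLuci+OGD against shLuci and the log2 change was -0.42 (SE 0.10, adjusted p = 0.0136 by limma) for shLuci+OGD against the libraries labelled shRac1. In shRac1+OGD Msx1 was not called, at a log2 change of -0.09 (adjusted p = 0.75 by limma) by titles and -0.15 (adjusted p = 0.336 by limma) against BMSC. The libraries labelled shRac1 were below shLuci (log2 change of -0.36, SE 0.10, adjusted p = 0.0278 by limma), a call lost without shLuci replicates 1 or 3 or any library labelled shRac1 (adjusted p up to 0.121).

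Meis1 and Meis2 are TALE homeobox cofactors of Hox proteins, known for marking the part of the limb nearest the body. Meis2 read 10.5, 10.5 and 11.1 FPKM in libraries labelled shRac1+OGD and 19.8, 18.8 and 18.5 FPKM in shLuci+OGD. Without OGD Meis2 read 14.8, 14.4 and 14.3 FPKM in libraries labelled shRac1, 5.02, 5.11 and 6.14 FPKM in shLuci and 9.26, 7.02 and 9.22 FPKM in BMSC. Meis2 was lowest in shLuci and highest in shLuci+OGD without overlap with any other group (ENSRNOG00000004730, chromosome 3, 107559997 to 107760589, minus strand). Meis1 read 36.1, 37.3 and 34.6 FPKM in libraries labelled shRac1+OGD and 31, 32.4 and 30 FPKM in shLuci+OGD. Without OGD Meis1 read 26.7, 25.3 and 23.2 FPKM in libraries labelled shRac1, 41, 40.2 and 40.3 FPKM in shLuci and 25.7, 27.4 and 28.1 FPKM in BMSC. Meis1 was instead highest in shLuci, above every other library, with the libraries labelled shRac1 overlapping BMSC at the low end (ENSRNOG00000004606, chromosome 14, 103181281 to 103321270, minus strand). The libraries labelled shRac1 differed from shLuci by a log2 change of 1.34 (SE 0.11, adjusted p = 1.98e-06 by limma) for Meis2 and by a log2 change of -0.68 (SE 0.07, adjusted p = 1.68e-05 by limma) for Meis1. With OGD in shLuci cells the log2 change was 1.73 (SE 0.11, adjusted p = 1.25e-07 by limma) for Meis2 and the log2 change was -0.37 (SE 0.07, adjusted p = 0.00147 by limma) for Meis1. Against the libraries labelled shRac1, the pair of the authors' list, both were higher in shLuci+OGD, at a log2 change of 0.38 for Meis2 (adjusted p = 0.0269 by limma) and 0.31 for Meis1 (adjusted p = 0.00814 by limma), so that Meis1 was called in opposite directions by titles and over that pair. In shRac1+OGD Meis1 was higher by titles, at a log2 change of 0.52 (adjusted p = 0.00027 by limma), and against BMSC, at 0.41 (adjusted p = 0.00216 by limma), while Meis2 was at -0.42 (adjusted p = 0.0211 by limma) by titles and 0.33 (adjusted p = 0.0596 by limma) against BMSC.

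Meis1 was transcribed above Meis2 in every library, but the ratio of their FPKM moved with the groups. It was 3.37 ± 0.23 in libraries labelled shRac1+OGD, 1.64 ± 0.0773 in shLuci+OGD, 1.73 ± 0.098 in libraries labelled shRac1, 7.53 ± 0.843 in shLuci and 3.24 ± 0.589 in BMSC (SD, n = 3 each). The ratio of Msx1 to Msx2 had the same order of its extremes, at 3.72 ± 0.193, 1.67 ± 0.0488, 1.76 ± 0.0595, 14.7 ± 1.66 and 5.92 ± 1.47 in the same groups and order. For both ratios no shLuci library overlapped another group, and shLuci+OGD overlapped the libraries labelled shRac1. Other ratios that were read did not have shLuci highest. Prrx1 over Prrx2 was highest in the label shRac1, at 1.74 ± 0.109, against 1.47 ± 0.46 in shLuci. Hoxc10 over Hoxc6 was highest in BMSC, at 5.91 ± 2.09, against 4.91 ± 0.198 in shLuci.

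**Figure D4:**
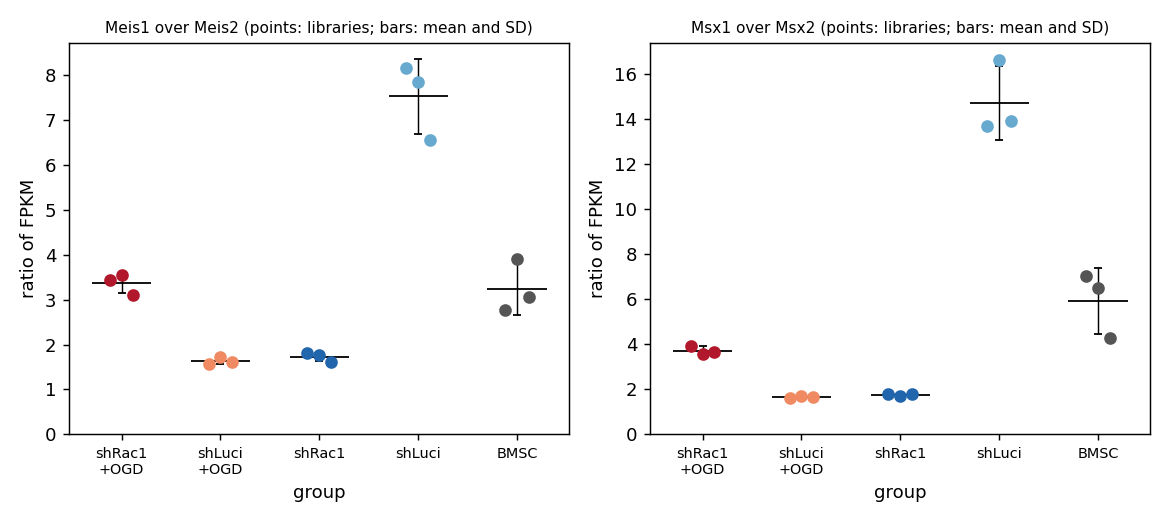
Ratio of FPKM within each library (points), with group mean and SD (bars, n = 3), for Meis1 over Meis2 (left) and Msx1 over Msx2 (right); groups run along the x axis. Both ratios are highest in shLuci, at means of 7.53 and 14.7, and lowest in shLuci+OGD and the label shRac1.

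Meis3, the third member of its family, was lower in shLuci+OGD than in shLuci. Meis3 read 6.9, 6.87 and 6.91 FPKM in libraries labelled shRac1+OGD and 5.24, 5.01 and 5.13 FPKM in shLuci+OGD. Without OGD Meis3 read 5.64, 6.04 and 5.37 FPKM in libraries labelled shRac1, 9.5, 8.38 and 8.41 FPKM in shLuci and 7.25, 12.6 and 7.83 FPKM in BMSC. BMSC replicate 2 held 1.67 times the mean of the other BMSC libraries. The log2 change was -0.72 (SE 0.15, adjusted p = 0.00461 by limma) for shLuci+OGD against shLuci, whose libraries did not overlap. Meis3 was not called over the authors' pairs, at a log2 change of -0.13 (adjusted p = 0.687 by limma) for shLuci+OGD and -0.36 (adjusted p = 0.15 by limma) for shRac1+OGD. The OGD libraries were lower on average by a log2 change of -0.34 (adjusted p = 0.0249 by limma), a call lost without any 1 of shLuci+OGD replicates 2 and 3, the 3 libraries labelled shRac1+OGD or shRac1 replicate 2 (adjusted p up to 0.0557).

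The Pbx genes encode the other TALE partners of Hox proteins. Pbx2 read 16.8, 17.7 and 17.4 FPKM in libraries labelled shRac1+OGD and 18.4, 19.2 and 19.3 FPKM in shLuci+OGD. Without OGD Pbx2 read 13.6, 14 and 15.2 FPKM in libraries labelled shRac1, 18, 15.8 and 16.8 FPKM in shLuci and 11.8, 14 and 13.3 FPKM in BMSC. Pbx2 was higher in OGD libraries (log2 change of 0.30, SE 0.05, adjusted p = 0.000905 by limma), with shLuci overlapping the label shRac1+OGD. Pbx2 was called in both of the authors' pairs, at a log2 change of 0.40 each (adjusted p = 0.00443 by limma against the label shRac1 and 0.00609 against BMSC). By titles Pbx2 was not called for shLuci+OGD against shLuci, at 18.9 ± 0.507 and 16.8 ± 1.08 FPKM (SD, n = 3 each). For the label shRac1+OGD against shRac1 it was called higher, a call that held in 2 of 15 fits that each left out 1 library. Pbx3, which overlaps Mapkap1 on the opposite strand, averaged 13.5 ± 0.609 FPKM in libraries labelled shRac1+OGD, 12.4 ± 1.05 FPKM in shLuci+OGD, 14.6 ± 0.66 FPKM in libraries labelled shRac1, 15.3 ± 0.319 FPKM in shLuci and 16.1 ± 2.34 FPKM in BMSC, and OGD libraries were lower (log2 change of -0.23, SE 0.06, adjusted p = 0.0151 by limma).

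Dlx5 and Dlx6 are neighbouring genes read in opposite directions, and Dlx5 drives osteoblast differentiation. Dlx5 read 20.9, 20.7 and 23.5 FPKM in libraries labelled shRac1+OGD and 15.9, 17.1 and 14.9 FPKM in shLuci+OGD. Without OGD Dlx5 read 12.4, 13.2 and 11.4 FPKM in libraries labelled shRac1, 20.5, 21 and 17.2 FPKM in shLuci and 26, 28.4 and 23.7 FPKM in BMSC. Dlx5 was lowest in the libraries labelled shRac1, below all others, and highest in BMSC, where every library stood above every shRac1+OGD library. It was lower in libraries labelled shRac1 than in shLuci (log2 change of -0.65, SE 0.10, adjusted p = 0.000668 by limma) and than in BMSC (log2 change of -1.05, SE 0.10, adjusted p = 2.95e-05 by limma). By titles the log2 change was 0.79 (SE 0.10, adjusted p = 0.000206 by limma) in the libraries labelled shRac1. In shLuci cells it was 16.0 ± 1.09 FPKM with OGD and 19.6 ± 2.06 FPKM without (SD, n = 3 each), which was not called. The authors' pairs reversed both signs, with shLuci+OGD called higher than the label shRac1 at a log2 change of 0.36 (adjusted p = 0.0283 by limma) and shRac1+OGD at -0.26 (adjusted p = 0.115 by limma) against BMSC.

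Dlx6 read 2.4, 3.37 and 4.1 FPKM in libraries labelled shRac1+OGD and 4.28, 4.22 and 3.61 FPKM in shLuci+OGD. Without OGD Dlx6 read 2.71, 2.93 and 2.37 FPKM in libraries labelled shRac1, 4.15, 3.98 and 5.12 FPKM in shLuci and 2.48, 1.61 and 1.96 FPKM in BMSC. Dlx6 was lowest in BMSC, overlapped by 1 library labelled shRac1+OGD and 1 labelled shRac1, and highest in shLuci, which overlapped shLuci+OGD and 1 library labelled shRac1+OGD. Dlx1 read 3.07, 2.65 and 2.37 FPKM in libraries labelled shRac1+OGD and 3.59, 2.5 and 2.71 FPKM in shLuci+OGD. Without OGD Dlx1 read 3.02, 3.18 and 3.2 FPKM in libraries labelled shRac1, 2.51, 1.71 and 1.6 FPKM in shLuci and 2.73, 2.8 and 2.98 FPKM in BMSC. Dlx1, a gene of forebrain and jaw whose mouse homologue is also active in limb ectoderm, was below the 3 libraries labelled shRac1 in each shLuci library. Dlx1 was called for the libraries labelled shRac1 against shLuci (log2 change of 0.59, SE 0.15, adjusted p = 0.0159 by limma), and the call was lost in 4 of 15 fits that each left out 1 library (adjusted p up to 0.074), namely without replicate 2 or 3 of either group.

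The 4 T-box genes tested had their widest spread in BMSC. Tbx15 read 19.3, 18.1 and 18.7 FPKM in libraries labelled shRac1+OGD and 19.4, 18.9 and 19.3 FPKM in shLuci+OGD. Without OGD Tbx15 read 23, 22 and 21.1 FPKM in libraries labelled shRac1, 20.3, 21 and 21.4 FPKM in shLuci and 20.9, 16.9 and 19.9 FPKM in BMSC. Tbx15, which shapes limb and skull bones, was the highest T-box gene and was not called in any contrast of the full fit (F-test adjusted p = 0.122), while median-of-ratios scaling gave an F-test adjusted p of 0.0115 and leaving out BMSC replicate 2 gave 0.00867 (limma). Tbx18 read 5.77, 6 and 4.74 FPKM in libraries labelled shRac1+OGD and 3.77, 3.26 and 3.78 FPKM in shLuci+OGD. Without OGD Tbx18 read 5.29, 4.6 and 4.99 FPKM in libraries labelled shRac1, 6.4, 6.9 and 6.59 FPKM in shLuci and 7.53, 5.1 and 7.64 FPKM in BMSC. Tbx18, a factor of mural and proximal limb mesenchyme, was lowest in shLuci+OGD, below every other library, and the log2 change was -0.80 (SE 0.14, adjusted p = 0.00111 by limma) there against shLuci. The authors' pairs gave no call for Tbx18, at a log2 change of -0.41 (adjusted p = 0.069 by limma) for shLuci+OGD and -0.26 (adjusted p = 0.234 by limma) for shRac1+OGD. Its difference between shRac1+OGD and shLuci+OGD was a log2 change of 0.55 (SE 0.14, adjusted p = 0.0329 by limma), and the call was lost in 8 of 15 fits that each left out 1 library (adjusted p up to 0.145), among them any 1 of the shLuci+OGD libraries, replicate 1 or 2 of the label shRac1+OGD, shLuci replicate 2 or 3, or replicate 3 of the label shRac1. Tbx3 read 7.04, 6 and 7.17 FPKM in libraries labelled shRac1+OGD and 7.86, 7.91 and 8.86 FPKM in shLuci+OGD. Without OGD Tbx3 read 6.64, 5.86 and 5.44 FPKM in libraries labelled shRac1, 6.63, 8.1 and 7.6 FPKM in shLuci and 5.3, 2.76 and 5.67 FPKM in BMSC. Tbx3, a repressor that bounds the limb field, was low in BMSC, where replicate 2 held 0.504 times the mean of the others. It was called for shLuci against BMSC (log2 change of 0.70, SE 0.20, adjusted p = 0.0322 by limma), a call lost without any 1 of the 3 shLuci libraries (adjusted p up to 0.121). Without BMSC replicate 2 that change of Tbx3 was 0.41, still called (adjusted p = 0.0124 by limma). Tbx2, its paralogue, ranged from 8.34 to 14.3 FPKM and was not called in the full fit (F-test adjusted p = 0.204), but was without BMSC replicate 2 (F-test adjusted p = 0.00446 by limma).

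Prrx1 and Prrx2 had the highest levels and gave no call in the fit of all 15 libraries. Without BMSC replicate 2 the F-test called both, at adjusted p of 0.00357 for Prrx1 and 0.000167 for Prrx2 (limma), and with library weights it called all 37 rows. Prrx1 read 167, 169 and 147 FPKM in libraries labelled shRac1+OGD and 249, 184 and 240.0 FPKM in shLuci+OGD. Without OGD Prrx1 read 214, 195 and 211 FPKM in libraries labelled shRac1, 101, 139 and 156 FPKM in shLuci and 181, 44.8 and 138 FPKM in BMSC. In BMSC replicate 2 Prrx1 was at 0.281 times and Prrx2 at 2.10 times the mean of the other BMSC libraries, so the pair moved apart in that library. Prrx1 was higher in shLuci+OGD than in shLuci in every library, without passing the test (log2 change 0.77, SE 0.38, adjusted p = 0.183 by limma). In the authors' pair shLuci+OGD overlapped the libraries labelled shRac1, at means of 225 and 207 FPKM. Prrx2 averaged 114 ± 5.22 FPKM in libraries labelled shRac1+OGD, 140.0 ± 12.8 FPKM in shLuci+OGD, 119 ± 1.73 FPKM in libraries labelled shRac1, 92.0 ± 10.1 FPKM in shLuci and 135 ± 62.8 FPKM in BMSC (SD, n = 3 each), and its F-test adjusted p was 0.253 (limma).

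Read contrast by contrast, the libraries labelled shRac1 and shLuci without OGD differed in 20 of the 37 rows, 15 higher and 5 lower. Among all genes 16.7% were called, 6.92% higher and 9.82% lower, and the median log2 change was 0.25 over the rows and -0.01 over all genes. The higher rows included Msx2, Meis2, Hoxc4, Hoxc5, Hoxc6, Hoxc8, Hoxc10, Hoxd8, Hoxa10, the 3 Hoxa11 rows and Dlx1, and the lower rows were Meis1, Meis3, Msx1, Dlx5 and Dlx6. Without 1 of the 6 libraries compared the count was 11 to 13, and without BMSC replicate 2 it was 29. The counts were 11 without replicate 1 or 3 of either group and 13 without replicate 2 of either.

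With OGD in shLuci cells, by titles, 22 rows were called, 17 higher and 5 lower, against 22.3% of all genes, 13.1% higher and 9.18% lower. The median log2 change was 0.47 over the rows and 0.08 over all genes. The higher rows included 6 HoxC genes, the 3 Hoxa5 rows, the lower Hoxa11 row, Hoxd8, Msx2, Meis2, Six4 and Dlx1, and the lower rows were Msx1, Meis1, Meis3, Tbx18 and Pbx3. The count was 14 without shLuci replicate 2 or shLuci+OGD replicate 3 and 31 without BMSC replicate 2, and median-of-ratios scaling gave 20, 13 of them higher. Over the authors' pair, shLuci+OGD against the libraries labelled shRac1, 13 rows were called, 11 higher and 2 lower, where 15.7% of all genes were called, 10.7% higher and 5.01% lower. That count was 23 in a fit to those groups alone, 24 without BMSC replicate 2, and 6 to 8 without any 1 of the 6 libraries compared. Median-of-ratios scaling gave 9, 5 of them higher, and library weights gave 28. The groups without OGD differ between these comparisons while shLuci+OGD is shared.

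With OGD in the libraries labelled shRac1, by titles, 8 rows were called, 4 higher and 4 lower, against 11.9% of all genes, 7.76% higher and 4.19% lower. The median log2 change was 0.02 over the rows and 0.04 over all genes. Dlx5, Meis1, Hoxc6 and Pbx2 were higher, and Msx2, Meis2, Hoxa10 and the lower Hoxa11 row were lower. The Meis2 call was lost without any 1 of the 3 libraries labelled shRac1 or replicate 1 or 2 of the label shRac1+OGD (adjusted p up to 0.0798), and the Pbx2 call in 13 of 15 such fits (adjusted p up to 0.162). The count was 5 without replicate 1 or 3 of the label shRac1 or replicate 1 or 2 of the label shRac1+OGD, and 18 without BMSC replicate 2. Over the authors' pair, shRac1+OGD against BMSC, 10 rows were called and all 10 were higher, where 13.5% of all genes were called, 9.94% higher and 3.53% lower. Fitted to those groups alone, limma called 0 rows and 10 had an unadjusted p under 0.05. Median-of-ratios scaling gave 4 calls in the full fit, 3 of them higher, library weights gave 20, and leaving out any 1 of the libraries labelled shRac1+OGD gave 5 or 6. The 10 rows called in the full fit included Six4, Hoxc5, Hoxc6, Hoxc11, the upper and scaffold rows of Hoxa5, Meis1, Pbx2 and Dlx6.

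Whether OGD acted differently with the hairpins was tested as an interaction. By titles 16 rows were called, 5 higher and 11 lower, where 16.7% of all genes were called, 8.88% higher and 7.82% lower. The largest were Msx2 at -3.03 (SE 0.21, adjusted p = 5.68e-07 by limma) and Meis2 at -2.14 (SE 0.15, adjusted p = 5.51e-07 by limma), for the change in the libraries labelled shRac1 minus that in shLuci. The count was 25 without BMSC replicate 2. Over the authors' pairs, limma called 0 of the 37 rows, 6 had an unadjusted p under 0.05, and 0.33% of all genes were called, 0.252% higher and 0.0782% lower. Those 6 were Dlx5, Hoxa10, Msx2, the upper and scaffold rows of Hoxa11 and Hoxc6, named after their values were seen.

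After OGD, the libraries labelled shRac1+OGD and shLuci+OGD differed in 6 rows, 2 higher and 4 lower, where 7.43% of all genes were called, 3.85% higher and 3.59% lower. Dlx5 and Tbx18 were higher, and the lower rows included Meis2, Msx2 and Hoxc6. The Dlx5 difference was a log2 change of 0.43 (SE 0.10, adjusted p = 0.0204 by limma) and was lost without replicate 1 or 3 of either group (adjusted p up to 0.103). The Meis2 change was a log2 change of -0.80 (SE 0.11, adjusted p = 0.00037 by limma). Without BMSC replicate 2 the count was 14.

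Against uninfected cells, by titles, shLuci differed in 11 rows, 4 higher and 7 lower, where 14.3% of all genes were called, 9.99% higher and 4.29% lower. Meis1, Dlx6, Pbx2 and Tbx3 were higher, and Hoxc4, Hoxc6, Hoxc8, Hoxc10, Meis2, Msx2 and Dlx5 were lower. The libraries labelled shRac1 differed from BMSC in 9 rows, 7 higher and 2 lower, where 10.7% of all genes were called, 6.39% higher and 4.31% lower. The higher rows included Msx2, Meis2, Hoxa10 and the 3 Hoxa11 rows, and Dlx5 and Meis3 were lower. These calls lean on the spread pooled over the 5 groups. Fitted to the compared groups alone, limma called 0 rows for shLuci, where 13 had an unadjusted p under 0.05, and 2 for the label shRac1. Without BMSC replicate 2, the counts in the full fit were 16 and 13, and the log2 change of Hoxc8 in shLuci against BMSC was -0.77 in place of -1.20, still called. That of Meis3 in the libraries labelled shRac1 against BMSC was -0.38 in place of -0.62, and it was lost without any 1 of the 3 libraries labelled shRac1 (limma adjusted p up to 0.0919).

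**Figure D5:**
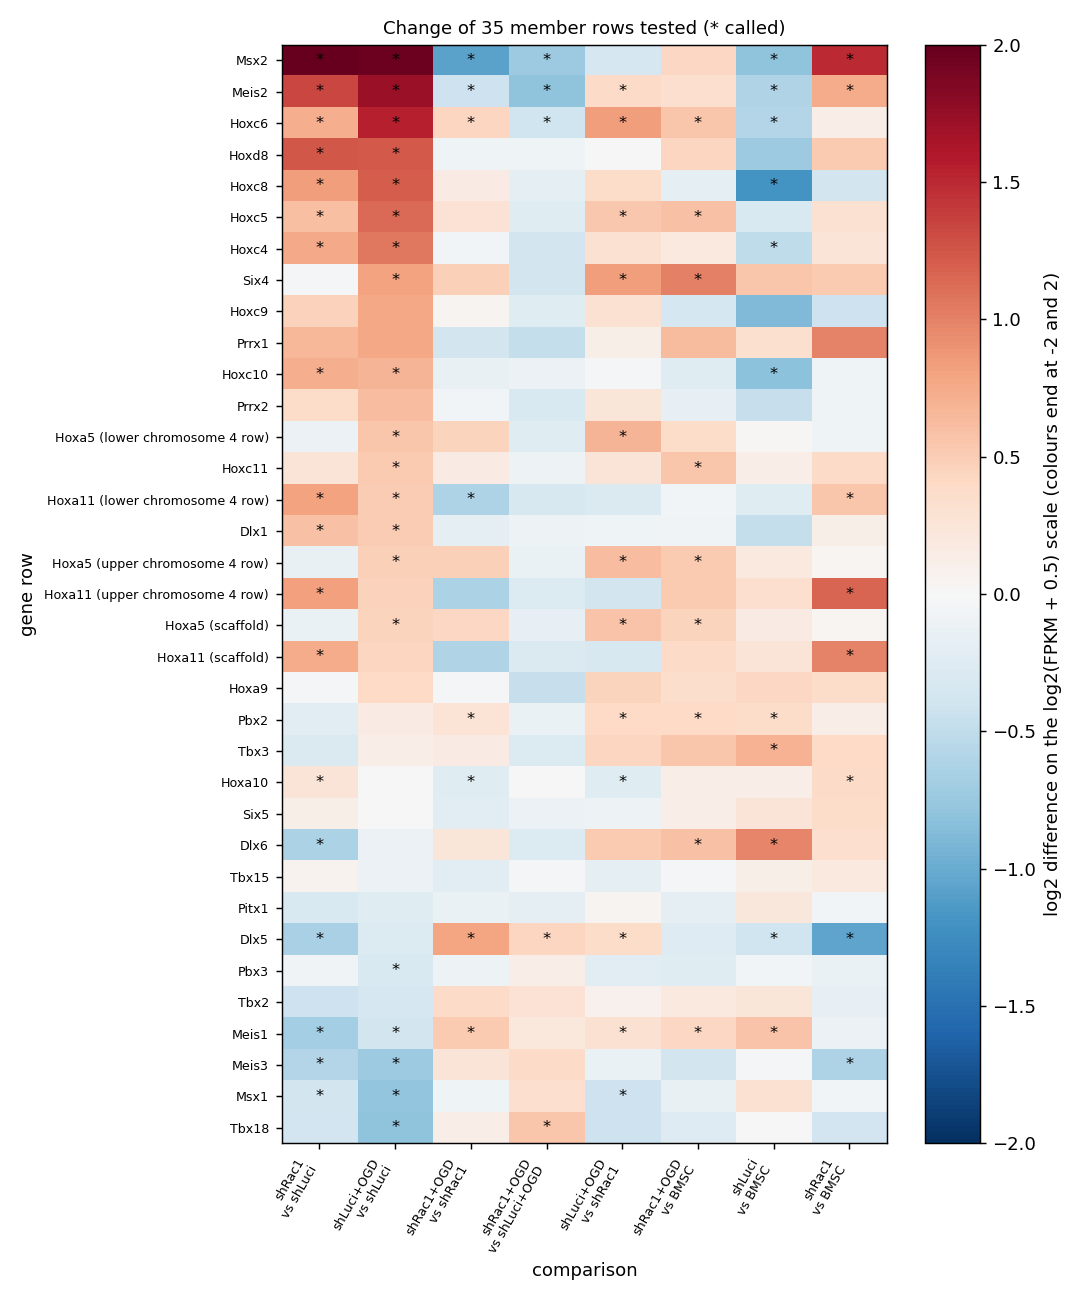
Log2 difference of 35 of the 37 rows tested (y axis) in 8 comparisons of 2 groups (x axis) as colour, red where the first group named is higher and blue where it is lower, with stars on limma calls at an adjusted p under 0.05. Msx2, Meis2 and most HoxC genes are red for shLuci+OGD against shLuci and for the label shRac1 against shLuci, and Meis1, Meis3, Msx1 and Tbx18 are blue in the column of shLuci+OGD against shLuci.

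The authors' deposited table names 16 of the rows in its 6 lists, 25 times in all. Out of 12169 genes, it lists 615 up and 545 down for shLuci against the label shRac1. It lists 317 up and 241 down for shRac1+OGD against shLuci+OGD, and 455 up and 359 down for shLuci+OGD against the label shRac1. A listing is not a call as used here, since Prrx1 is listed for shLuci against the label shRac1 at an authors' q-value of 0.0853. In the authors' deposited table, Meis2 (-0.77) and Msx2 (-0.67) are the rows listed for shRac1+OGD against shLuci+OGD, as log2 fold changes of the first group over the second. For shLuci against the libraries labelled shRac1, the authors' deposited table lists Meis1 (0.67) and Dlx5 (0.63) as up and Msx2 (-2.02), Meis2 (-1.27), Hoxd8 (-0.92), Hoxc8 (-0.81), Hoxc10 (-0.72), Hoxc4 (-0.71), Hoxc6 (-0.68), Prrx1 (-0.66) and the lower and upper Hoxa11 rows (both -0.69) as down. For shLuci+OGD against the libraries labelled shRac1 the authors' deposited table lists Hoxc6 (0.81), Six4 (0.77) and Hoxa7 (0.66). None of the rows is in its list for shRac1+OGD against BMSC, which holds 293 genes up and 178 down out of the 12169.

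Genes that work with this set were counted in the same fit from lists of related factors. Of 57 other limb and mesenchyme factors 34 were tested, and 20 differed between the libraries labelled shRac1 and shLuci, 13 higher and 7 lower, where 16.7% of all genes were called, 6.92% higher and 9.82% lower. Emx2, which patterns the shoulder blade, was higher at 6.31 ± 0.291 FPKM in libraries labelled shRac1 against 1.53 ± 0.133 FPKM in shLuci (log2 change 1.75, adjusted p = 8.56e-08 by limma). Foxc2 was lower, at 1.68 ± 0.35 FPKM in libraries labelled shRac1 and 6.27 ± 0.149 FPKM in shLuci (log2 change -1.64, adjusted p = 6.63e-06 by limma). OGD libraries against the rest gave 7 higher and 10 lower calls, where 26.7% of all genes were called, 18.7% higher and 8.01% lower. Osr1, a factor of joint and limb connective tissue, was lower by a log2 change of -0.93 (adjusted p = 1.67e-07 by limma). Osr1 averaged 33.5 ± 0.80 FPKM in libraries labelled shRac1+OGD, 23.0 ± 1.19 FPKM in shLuci+OGD, 54.1 ± 1.07 FPKM in libraries labelled shRac1, 38.9 ± 3.00 FPKM in shLuci and 72.9 ± 8.85 FPKM in BMSC (SD, n = 3 each). Meox2, a homeobox gene of limb muscle, was lower in shRac1+OGD than in shLuci+OGD, at 1.71 ± 0.216 against 6.28 ± 0.357 FPKM (log2 change -1.62, adjusted p = 5.34e-07 by limma).

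Of 24 cofactors 22 were tested, and 8 differed between the libraries labelled shRac1 and shLuci, 5 higher and 3 lower, against 16.7% of all genes, 6.92% higher and 9.82% lower. Eya2, a coactivator of Six4, was at 1.31 ± 0.205 FPKM in libraries labelled shRac1 and 0.0815 ± 0.00623 FPKM in shLuci (log2 change 1.63, adjusted p = 2.01e-06 by limma). Pknox2, a TALE relative of Meis, was at 2.38 ± 0.201 FPKM in libraries labelled shRac1 and 0.602 ± 0.0557 FPKM in shLuci (log2 change 1.38, adjusted p = 4.68e-06 by limma). Tgif2, a TALE repressor, was lower, at 2.32 ± 0.315 FPKM in libraries labelled shRac1 and 5.91 ± 0.711 FPKM in shLuci (log2 change -1.18, adjusted p = 1.18e-05 by limma). OGD libraries against the rest gave 4 calls among the 22 cofactors, a share below the 26.7% of all genes, and Tle1, Eya2, Tle2 and Tgif2 were all higher. Among all genes 18.7% were called higher and 8.01% lower, so the share called higher was near that of all genes.

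Of 25 limb signals 14 were tested, and OGD libraries differed from the rest in 8, 4 higher and 4 lower, against 26.7% of all genes, 18.7% higher and 8.01% lower. Bmp4, a signal upstream of Msx genes in limb buds, was at 6.31 ± 0.293 FPKM in libraries labelled shRac1+OGD, 3.60 ± 0.0829 FPKM in shLuci+OGD, 10.0 ± 0.0956 FPKM in libraries labelled shRac1, 21.2 ± 1.03 FPKM in shLuci and 10.5 ± 0.31 FPKM in BMSC. It was lower in OGD libraries by a log2 change of -1.36 (adjusted p = 8.12e-10 by limma). Its group order ran as that of Msx1 at both ends and unlike that of Msx2. Bmp2 was at 1.80 ± 0.464 FPKM in libraries labelled shRac1+OGD, 5.04 ± 0.132 FPKM in shLuci+OGD, 7.14 ± 0.0679 FPKM in libraries labelled shRac1, 3.77 ± 0.195 FPKM in shLuci and 1.58 ± 0.325 FPKM in BMSC. Grem1, a BMP antagonist of the limb bud, was higher in OGD libraries by a log2 change of 1.08 (adjusted p = 6.66e-06 by limma), at 81.0 ± 0.309 FPKM in libraries labelled shRac1+OGD, 91.0 ± 5.26 FPKM in shLuci+OGD, 50.1 ± 1.82 FPKM in libraries labelled shRac1, 38.0 ± 4.62 FPKM in shLuci and 35.3 ± 9.07 FPKM in BMSC.

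Of 45 regulators of Hox loci 38 were tested, and 14 differed between OGD libraries and the rest, 10 higher and 4 lower, against 26.7% of all genes, 18.7% higher and 8.01% lower. Cbx6, a Polycomb chromobox protein, was at 60.7 ± 1.46 FPKM in libraries labelled shRac1+OGD, 65.2 ± 3.97 FPKM in shLuci+OGD, 40.7 ± 2.35 FPKM in libraries labelled shRac1, 38.1 ± 1.16 FPKM in shLuci and 39.5 ± 3.26 FPKM in BMSC (log2 change 0.67, adjusted p = 9.11e-07 by limma). Ezh2, the Polycomb methyltransferase, was at 31.8 ± 0.739 FPKM in libraries labelled shRac1+OGD, 28.5 ± 0.754 FPKM in shLuci+OGD, 32.8 ± 0.59 FPKM in libraries labelled shRac1, 40.9 ± 0.844 FPKM in shLuci and 32.5 ± 0.34 FPKM in BMSC (log2 change -0.51 for shLuci+OGD against shLuci, adjusted p = 1.55e-05 by limma). Of the retinoic acid genes, Cyp26a1, which degrades the acid, was at 1.63 ± 0.551 FPKM in libraries labelled shRac1 and 4.25 ± 0.105 FPKM in shLuci (log2 change -1.19, adjusted p = 0.000219 by limma), and Crabp1, which binds it, was at 3.40 ± 0.441 FPKM in libraries labelled shRac1 and 1.18 ± 0.136 FPKM in shLuci (log2 change 1.21, adjusted p = 2.15e-05 by limma).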

How the data were processed

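RNA of rat bone marrow mesenchymal stem cells was sequenced in 15 libraries, 3 in each of 5 groups taken from the sample titles. The deposited gene table holds FPKM for 12169 genes, per the file headers. The submitters' processing notes name HISAT2, with no version, and StringTie 1.2.3. Genome build, strand setting and depth are not given in the sources used here. For 6 pairs of groups the authors deposited lists with log2 fold changes, p-values and q-values, per the file headers, which do not name the test.

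The filter asked for 1 FPKM or more in 3 or more libraries, and 11515 genes passed while 654 did not. Values were taken as log2(FPKM + 0.5) with no further scaling, so changes of low genes are understated. All 15 libraries entered 1 fit of 5 group means with 10 residual degrees of freedom in limma 3.58.1 (R 4.3.3, eBayes with a mean-variance trend). P-values are two-sided and adjusted by Benjamini and Hochberg over all genes kept, and called means an adjusted p under 0.05. SE is the standard error of limma. The scripts were tested on simulated data. The members and lists were chosen with earlier results of these data known. Values per library are given for members called with a log2 change of at least 0.58, for the highest member of each family and for members set beside them. The fits and counts include 2 rows that are not reported here by name. Alternatives were pseudocounts of 0.1 and 1, no filter, median-of-ratios scaling, library weights, a replicate block, fits to the compared groups alone and each library left out. Added after seeing the data were the groups of the authors' pairs and the sum of rows that share a gene name. Promoter windows come from RefSeq (GRCr8), and the searches for GC, CCAAT and TATA boxes were added after a first search.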

Additional observations from a re-analysis of the deposited data

Results flagged for a closer look

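For 16 rows the change with OGD differed between the hairpins by the test of the interaction in limma, with groups taken from the titles. The values are the log2 change with OGD in the libraries labelled shRac1 minus that in shLuci, given for 15 of these rows. Below 0 were Msx2 (-3.03), Meis2 (-2.14), Hoxc6 (-1.12), Hoxc4 (-1.12), the lower Hoxa11 row (-1.12), the upper Hoxa11 row (-1.10), the scaffold Hoxa11 row (-1.03), Hoxc5 (-0.85), Hoxc10 (-0.83) and Dlx1 (-0.69). Above 0 were Dlx5 (1.07), Meis3 (0.98), Tbx18 (0.93), Meis1 (0.89) and Msx1 (0.69). The calls of Dlx1 and of the upper and scaffold Hoxa11 rows were lost in 10, 11 and 11 of the 15 fits that each left out 1 library.

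With the OGD groups set against the groups of the authors' pairs, limma called 0 of the 37 rows, and 6 had an unadjusted p under 0.05. The titles of the groups without OGD decide which of these tests applies, and Rac1 levels did not check those titles.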

How the results depend on the processing

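Of 102 called changes of named members, 71 were called in every fit that left out 1 library, and none changed sign under alternatives that kept the groups compared. Over the authors' pairs 18 of 42 changed sign. For shLuci+OGD these became -0.33 for Msx2, 0.31 for Meis1, -0.29 for the lower Hoxa11 row, -0.09 for Dlx1, -0.04 for Hoxc10 and -0.01 for Hoxd8, and for shRac1+OGD 0.42 for Msx2, 0.33 for Meis2, 0.14 for Hoxa10 and -0.26 for Dlx5. For the interaction they became 0.75 for Msx2, 0.89, 0.71 and 0.23 for the upper, scaffold and lower Hoxa11 rows, 0.05 for Hoxc5, 0.03 for Dlx1, -0.62 for Dlx5 and -0.22 for Meis3. Of these 18 only Meis1 was called (adjusted p = 0.00814 by limma). Setting the OGD groups against the groups of the authors' pairs gave 0 calls for the interaction and 13 for shLuci+OGD. With library weights, whose estimation stopped short of its convergence tolerance, the counts were 37 for the F-test, 29 for the interaction, 30 for OGD, 22 for shLuci and 25 for the label shRac1 against BMSC, 33 for the label shRac1 against shLuci, 17 between the OGD groups and 28 for shRac1+OGD against shRac1. Fits to the compared groups alone called 0 for shLuci (13 at an unadjusted p under 0.05) and 2 for the label shRac1 against BMSC, 13 between the OGD groups and 21 for shRac1+OGD against shRac1. The cause of these moves was not tested.

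Leaving out 1 library at a time gave 15 to 26 calls for OGD, 23 to 36 for the F-test, 13 to 25 for the interaction, 9 to 16 for shLuci and 6 to 13 for the label shRac1 against BMSC. It gave 14 to 31 for shLuci+OGD against shLuci, 11 to 29 for the label shRac1 against shLuci, 4 to 14 between the OGD groups and 5 to 18 for shRac1+OGD against shRac1. The highest of each came without BMSC replicate 2. With median-of-ratios scaling, 3 of 12 calls were higher for shLuci against BMSC (4 of 11 unscaled), 6 of 9 for the label shRac1 against BMSC (7 of 9) and 3 of 8 for shRac1+OGD against shRac1 (4 of 8). It lost 9 of the 102 calls, among them those of Meis1 for OGD, Msx1, Meis3 and Hoxc8 for the label shRac1 against shLuci, Dlx1 for shLuci+OGD against shLuci, and Pbx2 for shRac1+OGD against shRac1 and for shLuci against BMSC.

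The replicate numbers did not pair the libraries, since 11 of 30 same-numbered pairs correlated above 0.1 (median r -0.0221). With the replicate block the counts were 14 for the interaction, 19 for OGD, 12 for shLuci and 9 for the label shRac1 against BMSC, 21 for shLuci+OGD against shLuci, 17 for the label shRac1 against shLuci, 6 between the OGD groups, 6 for shRac1+OGD against shRac1 and 29 for the F-test. The depth of the libraries is unknown, so what it limits cannot be given.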
